A study of Mus musculus with 9 samples.

Results

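RNA-seq values were examined for 9 mouse genes that set or carry the macrophage state: Csf1r, the receptor through which macrophages receive their growth factor, and the transcription factors Spi1, Cebpa, Cebpb, Cebpd, Maf, Runx1, Klf4 and Klf6. The genes were chosen by name and each was matched to a single row by its Ensembl identifier, which gave 9 of the 55655 rows of the tables. The values are FPKM, fragments per kilobase of transcript scaled to the fragments of each library, so levels of different genes can be set beside each other per length. All libraries came from wild type C57BL/6 mice aged 6 to 8 weeks, whose femur and tibia marrow was cultured for 7 days with 10 ng/mL M-CSF to give bone marrow-derived macrophages. M0 macrophages received nothing further and were not irradiated. M1 macrophages received LPS, a bacterial cell wall component, with interferon-γ, and were collected after 12 hours. M1 + PBM macrophages received the same stimulation and photobiomodulation (PBM), an irradiation with near-infrared laser light. There were 3 libraries in each group, and the study asked how PBM alters gene expression in stimulated macrophages. The study describes this RNA-seq experiment as repeated 3 times independently, without saying what was repeated. No label ties the libraries to separate animals or cultures, so p-values measure the spread between these libraries, which may be technical.

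CSF1R is the tyrosine kinase receptor for M-CSF, which the gene Csf1 encodes, and for IL-34, and its signal keeps macrophages alive. PU.1, the product of Spi1, opens macrophage enhancers together with C/EBP factors and RUNX1, and the Csf1r gene is itself among its known targets. C/EBPα acts in steady-state myeloid differentiation, whereas C/EBPβ and C/EBPδ are induced by inflammatory stimuli. c-Maf acts in mature macrophages, where it is an activator of Il10, and the Krüppel-like factors KLF4 and KLF6 have been linked to alternative and inflammatory activation, respectively.

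The libraries were checked before the genes were compared. Depth, estimated from the steps between low FPKM values, was 30810000 to 42450000 fragments per library (median 34880000), and no 2 libraries were identical. The depth may be an underestimate, since in 8 of 9 libraries a step above the searched range scored better. Macrophage core genes were present in every group. Adgre1, which encodes F4/80, lay between 299 and 326 FPKM in M0, between 618 and 711 in M1 and between 644 and 864 in M1 + PBM. Of 12 markers each, 9 of neutrophils, 11 of dendritic cells, 11 of lymphoid cells, 11 of erythroid cells and megakaryocytes and 10 of mast cells and basophils stayed below 1 FPKM in all 9 libraries. M0 replicate 3 stood apart from the other M0 libraries. Its summed FPKM over 15 M1 markers was 404, against 34.7 and 31.9 in M0 replicates 1 and 2 and 3360 to 3545 in M1. Its summed FPKM over 12 stromal markers was 302, against 13.7 and 10.9 in the other M0 libraries, 19.6 to 23.7 in M1 and 9.35 to 42.9 in M1 + PBM, and 2 of the 12 stayed below 1 everywhere. Differences of the 9 genes between M1 and M0, and counts over gene lists that moved, are therefore also given without this library. The part of these markers in the results below was not tested.

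The FPKM of M0 came in a separate table, which may have been normalized apart from that of M1 and M1 + PBM, so differences from M0 were described and not tested. The median difference over 13915 rows with at least 1 FPKM in at least 3 of the 9 libraries was -0.34 between M1 and M0 and -0.27 between M1 + PBM and M0 on the log2(FPKM + 1) scale. Differences are therefore also given relative to these medians. A difference from M0 was called where the groups did not overlap and it reached at least 1 on this scale, a 2-fold change. Listed genes are termed expressed where they had at least 1 FPKM in at least 3 of the 9 libraries. Expression in 1 group alone can pass this filter, which favours calls in the direction of that group. In bulk RNA, fewer cells of a type and less RNA per cell cannot be told apart.

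Cebpa and Cebpb were the genes of the 9 that differed most between M0 and M1, in opposite directions, so the 250 bases before their RefSeq start sites are shown. RefSeq windows of this kind (GRCm38.p6) were matched for 5 of the 9 genes, with 6 windows in all. Csf1r, Spi1, Cebpd and Maf were not matched. Capitals mark, on either strand and with overlaps merged, the C/EBP motif TTNNGCAA, the core TGACG of the cyclic AMP response element, the CCAAT box, the TATA box TATAAA and the GC box GGGCGG. Both windows lie on the plus strand and are written 5′ to 3′, Cebpa at chr7:35119043-35119292 and Cebpb at chr2:167688665-167688914.
Cebpa: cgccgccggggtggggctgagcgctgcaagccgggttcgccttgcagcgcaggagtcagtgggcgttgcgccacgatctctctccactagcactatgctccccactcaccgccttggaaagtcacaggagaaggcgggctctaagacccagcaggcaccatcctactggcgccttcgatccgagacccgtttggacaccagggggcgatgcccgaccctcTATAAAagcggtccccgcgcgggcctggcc
Cebpb: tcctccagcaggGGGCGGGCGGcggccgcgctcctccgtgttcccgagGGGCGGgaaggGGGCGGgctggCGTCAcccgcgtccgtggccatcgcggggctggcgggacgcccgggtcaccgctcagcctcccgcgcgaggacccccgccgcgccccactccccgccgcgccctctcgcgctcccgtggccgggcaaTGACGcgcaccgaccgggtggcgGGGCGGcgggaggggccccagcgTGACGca
The Cebpa window is 66.4% GC and holds a TATAAA at positions -30 to -25 from the start site, a motif found in 12.4% of the 32851 windows of the table. The Cebpb window is 81.6% GC, where the median of all windows is 52.4%. It holds 5 GC boxes, of which 2 overlap, and 3 TGACG cores, the nearest to the start at positions -7 to -3. A GC box occurs in 32.7% of all windows and a TGACG core in 17.8%. Neither window holds TTNNGCAA, found in 9.56% of windows, or CCAAT, found in 33.8%. Such matches describe letters in a window and not bound sites.

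Csf1r was the most abundant of the 9 genes in every group by mean FPKM. It was at 332, 343 and 294 FPKM in M0 replicates 1 to 3, at 256, 302 and 156 in M1 and at 291, 257 and 239 in M1 + PBM. M1 replicate 2 lay above M0 replicate 3, so M0 and M1 overlapped, and M1 replicate 3 was the lowest of the 9 libraries. The difference between M1 and M0 was -0.49 on the log2 scale (pooled SD 0.36, n = 3 and 3), -0.15 relative to the median of all rows and -0.56 without M0 replicate 3. It was -0.21 without M1 replicate 3, and with libraries scaled by median-of-ratios it was 0.01. All 3 M1 + PBM libraries lay below all 3 M0 libraries as deposited, with a difference of -0.30, or -0.03 relative to the median. This direction turned to 0.11 with median-of-ratios scaling and to 0.07 with scaling to reference genes. Exons of Csf1r share 873 bases with Hmgxb3 on the opposite strand, which was at 4.43 to 5.62 FPKM.

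**Figure D1:**
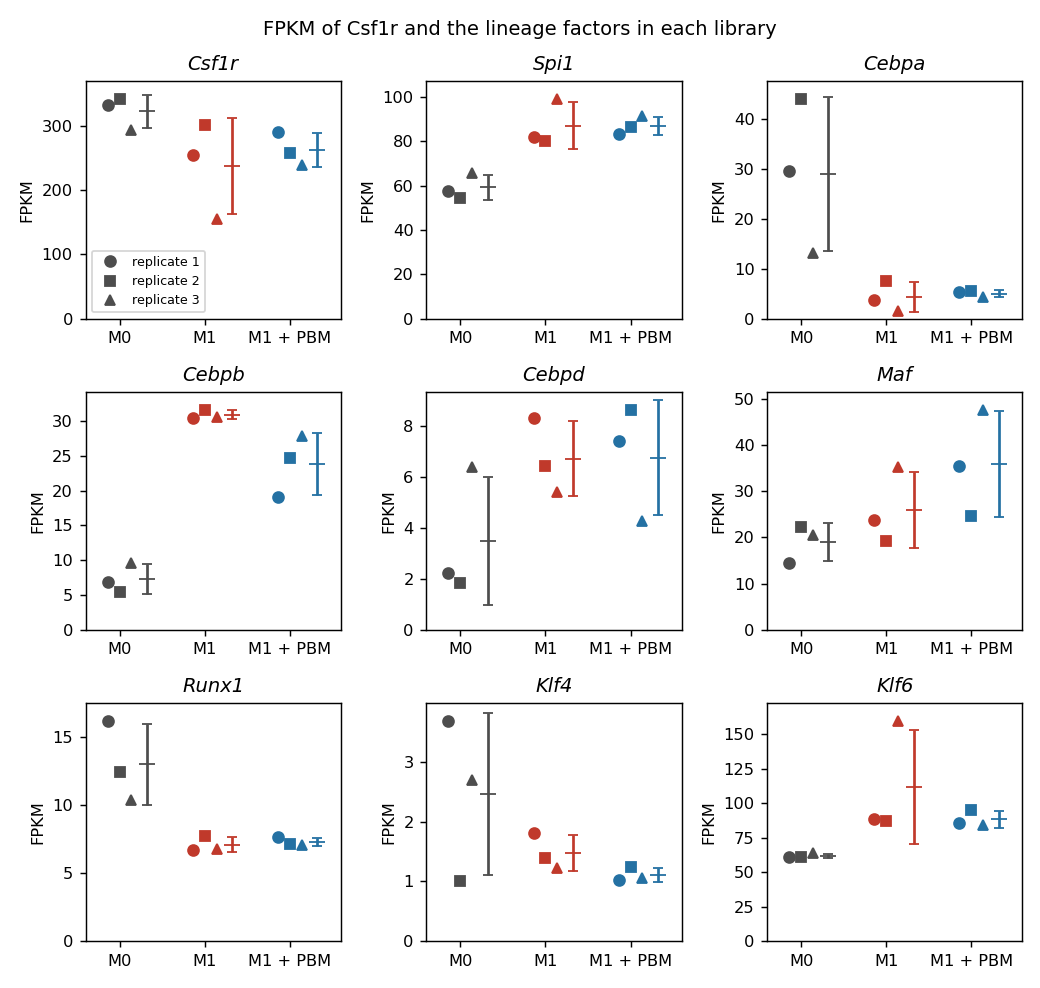
FPKM of the 9 genes in each library of M0 (grey), M1 (red) and M1 + PBM (blue), with symbols for replicates 1 to 3 and, to the right of each group, the mean and SD (n = 3). Each vertical axis starts at 0; Cebpa is low and Cebpb high in all 6 stimulated libraries, while Csf1r in M1 spans 156 to 302 FPKM.

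The genes that supply and relay the CSF1R signal were examined next. Csf1, the ligand gene, was at 1.07, 0.93 and 11.6 FPKM in M0, at 5.23, 6.44 and 6.87 in M1 and at 3.97, 4.68 and 4.66 in M1 + PBM. The high value was that of M0 replicate 3, the library with raised stromal and M1 markers. Il34, the other ligand gene, did not exceed 0.58 FPKM, and Flt3, a related receptor, was listed at 0 in every library. Among 10 ligands and related colony-stimulating factor receptors, 7 were expressed. Of these, 3 were higher in M1 than in M0 by the 2-fold rule (Csf3, Csf3r and Csf2rb) and none was lower by it, where 7.81% of all rows were higher and 13.7% lower. The counts were 4 higher and 1 lower without M0 replicate 3. Csf3r, the receptor for G-CSF, was at 17.1, 24.2 and 11.6 FPKM in M0 and at 113, 102 and 135 in M1, a difference of 2.71 with no overlap. Kit, a receptor of the same family as Csf1r, was at 1.33, 1.53 and 1.14 FPKM in M0 and did not exceed 0.28 in M1, a difference of -0.98 that stopped short of 2-fold on the log2(FPKM + 1) scale.

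Of 28 genes of CSF1R signalling and receptor shedding, 27 were expressed, 7 were higher in M1 by the 2-fold rule and 2 were lower, beside the 7.81% and 13.7% of all rows. The counts were 7 and 4 without M0 replicate 3, and 9 and 0 with median-of-ratios scaling. Socs1, an inhibitor of cytokine signalling, was at most 0.45 FPKM in M0 and at 16.3, 12.7 and 13.3 in M1, a difference of 3.58. Rhbdf2, which encodes a partner of the receptor-cleaving protease ADAM17, differed by 1.91. Adam17 itself differed by 0.25. The adaptor genes Dok2 and Gab3 were lower in M1, by -1.40 and -1.29. The median of the list was 0.15, against -0.34 over all rows.

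Spi1 was higher in all 6 stimulated libraries than in M0. It was at 57.7, 54.6 and 65.5 FPKM in M0, at 82.0, 79.9 and 99.2 in M1 and at 83.2, 86.3 and 91.2 in M1 + PBM. The 2 stimulated groups overlapped each other and neither overlapped M0. M1 exceeded M0 by 0.54 (pooled SD 0.15), a ratio of mean FPKM of 1.47, and by 0.88 relative to the median of all rows. The difference was 0.62 without M0 replicate 3 and 1.04 with median-of-ratios scaling, which takes it past 2-fold. The sister gene Spic, the PU.1-related factor of red pulp macrophages, did not exceed 0.75 FPKM in M0 and was at 11.4, 9.93 and 8.79 in M1, a difference of 2.85. Spib, the third gene of this group, did not exceed 0.22 FPKM in any library.

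Cebpa was at 29.5, 44.0 and 13.2 FPKM in M0, at 3.80, 7.55 and 1.52 in M1 and at 5.33, 5.47 and 4.26 in M1 + PBM. Every stimulated library lay below every M0 library, and M0 replicate 3 was the lowest of its group. M1 was lower by -2.52 (pooled SD 0.86), with a mean FPKM 6.74 times higher in M0. Without M0 replicate 3 the difference was -2.98. Cebpb had the opposite order. It was at 6.87, 5.40 and 9.60 FPKM in M0, at 30.5, 31.6 and 30.5 in M1 and at 19.1, 24.6 and 27.8 in M1 + PBM. The 3 groups did not overlap, with M0 lowest and M1 highest. M1 exceeded M0 by 1.97 (pooled SD 0.26), a ratio of 4.24, and by 2.17 without M0 replicate 3.

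Cebpd was at 2.25, 1.84 and 6.40 FPKM in M0, at 8.32, 6.45 and 5.43 in M1 and at 7.40, 8.65 and 4.26 in M1 + PBM. The groups overlapped because M0 replicate 3 lay among the stimulated libraries. The difference of M1 from M0 was 0.90 with that library and 1.33 without it, where the groups no longer overlapped. Cebpd was also past the 2-fold rule with either scaling, at 1.29 and 1.18, and without M1 replicate 3, at 1.03. Among the remaining family members, Cebpg, a partner without an activation domain, differed by -0.55 with overlap, Ddit3, which encodes CHOP, by 0.67 without overlap, and Cebpe did not exceed 0.16 FPKM. Exons of Cebpa, Cebpb and Cebpd share 51, 312 and 562 bases with Gm45091, Tmem189 and Spidr on the opposite strand. Tmem189 was at 31.2 to 56.5 FPKM. The libraries were made with a strand-specific kit, but whether the counting used strand is not given in the sources used here.

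The ratio of 2 genes within a library does not depend on how that library was scaled, apart from the added 1. The log2 ratio of Cebpb to Cebpa was -1.96, -2.81 and -0.42 in M0, 2.71, 1.93 and 3.65 in M1 and 1.67, 1.99 and 2.45 in M1 + PBM. Cebpa was thus the higher of the pair in every M0 library and Cebpb in every stimulated library. The mean ratio moved by 4.49 between M0 and M1, and by 5.15 without M0 replicate 3. The ratio of Cebpd to Cebpa was -3.23, -3.98 and -0.94 in M0 and 0.96, -0.20 and 1.35 in M1, a difference of 3.42 without overlap. It was 4.31 without M0 replicate 3. The ratio of Cebpb to Cebpd differed by 1.07, or by 0.84 without that library.

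**Figure D2:**
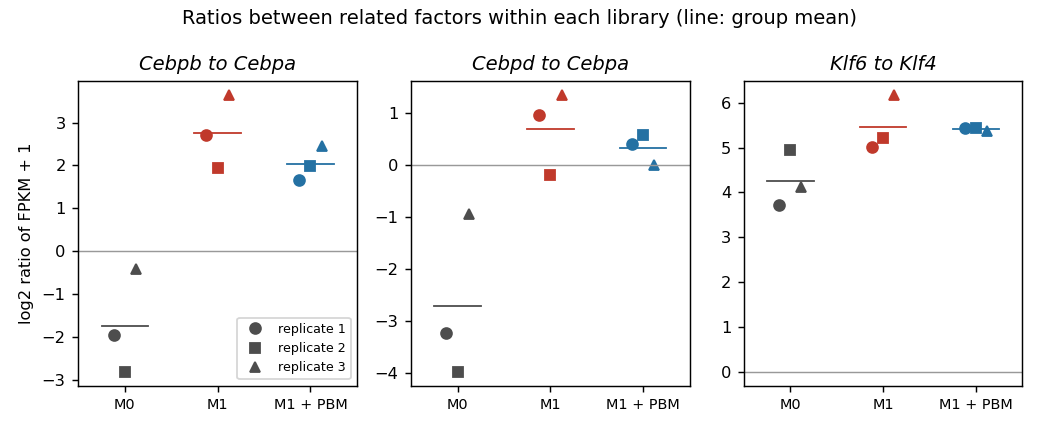
Log2 ratios of FPKM + 1 between related factors within each library, by group, with symbols for replicates 1 to 3 and a line at the group mean. The Cebpb to Cebpa ratio is below 0 in the 3 M0 libraries and above 0 in the 6 stimulated ones, and the Klf6 to Klf4 ratio is above 0 in all 9.

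Maf was at 14.4, 22.2 and 20.5 FPKM in M0, at 23.7, 19.1 and 35.1 in M1 and at 35.4, 24.6 and 47.6 in M1 + PBM. M0 and M1 overlapped, with a difference of 0.41 (pooled SD 0.38) that was 0.17 without M1 replicate 3 and 0.47 without M0 replicate 3. All M1 + PBM libraries were above all M0 libraries, by 0.85 on average. Of 10 expressed genes associated with Maf factors, 1 was higher in M1 by the 2-fold rule and 2 were lower, or 3 without M0 replicate 3. Over all rows 7.81% were higher and 13.7% lower by this rule, so the counts were near those shares. The genes called with all libraries were the cytokine gene Il10 at 2.87, Gas6, a ligand for the receptors that recognise apoptotic cells, at -3.42, and the mannose receptor gene Mrc1 at -2.40.

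Runx1 was at 16.2, 12.5 and 10.4 FPKM in M0, at 6.72, 7.74 and 6.80 in M1 and at 7.65, 7.18 and 7.07 in M1 + PBM. Every stimulated library was below every M0 library. The difference of M1 from M0 was -0.77 (pooled SD 0.22), or -0.44 relative to the median of all rows, and the mean in M0 was 1.84 times that in M1. The difference was -0.91 without M0 replicate 3. Cbfb, which encodes the obligate partner of RUNX1, also had no overlap and a difference of -0.87. Runx2 was at no more than 1.52 FPKM and Runx3 at no more than 1.10. Runx1 shares 106 exonic bases with Gm26626 on the opposite strand, which was at 1.73 to 4.16 FPKM.

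Klf6 was at 60.6, 61.1 and 63.6 FPKM in M0, at 88.9, 87.3 and 159.9 in M1 and at 85.9, 95.3 and 84.1 in M1 + PBM. The stimulated libraries were all above M0, and M1 replicate 3 was far above the others. The difference of M1 from M0 was 0.79 (pooled SD 0.35), 0.81 without M0 replicate 3, 0.51 without M1 replicate 3 and 1.29 or 1.14 with median-of-ratios or reference-gene scaling. Klf4 was the lowest of the 9 genes, at 3.70, 1.00 and 2.70 FPKM in M0, at 1.81, 1.39 and 1.23 in M1 and at 1.02, 1.24 and 1.05 in M1 + PBM. M0 replicate 2 was the lowest library of all, so the groups overlapped, with a difference of -0.41 between M1 and M0, or -0.32 without M0 replicate 3. By the longest transcript and the estimated depth, which may be low, about 105 to 345 fragments stood behind a Klf4 value and 127 to 3990 behind a Cebpa value. Klf2, a related factor with anti-inflammatory roles, was lower in M1 by -1.16 without overlap. The log2 ratio of Klf6 to Klf4 was 3.71, 4.96 and 4.12 in M0 and 5.0, 5.21 and 6.17 in M1, higher in M1 without overlap and by 1.20, or by 1.13 without M0 replicate 3.

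By the 2-fold rule, 2 of the 9 genes differed between M1 and M0, Cebpb upward and Cebpa downward, where 21.5% of all rows were called. Without the fold requirement, M0 and M1 did not overlap for 5 of the 9, where the share over all rows was 66.3%. Of these, Spi1, Cebpb and Klf6 were higher in M1, as were 15.6% of all rows, and Cebpa and Runx1 were lower, as were 50.6%. With libraries scaled by median-of-ratios the 2-fold rule called 5 of the 9, adding Spi1, Cebpd and Klf6, and with scaling to 25 reference genes it called 4, adding Cebpd and Klf6. Without M0 replicate 3 it called 3, adding Cebpd, where 23.4% of all rows were called. Over all rows, 1087 were called higher and 1904 lower as deposited, 1628 and 964 with median-of-ratios scaling, and 1456 and 1145 with reference genes. In M1 + PBM against M0, which shares the M0 libraries, Cebpb and Cebpa were again the genes called, at 1.60 and -2.17, where 17.4% of all rows were called, 7.13% as higher and 10.3% as lower. Without M0 replicate 3 they were at 1.79 and -2.63 and 3 of the 9 were called, where 19.3% of all rows were. With all libraries, M1 + PBM and M0 did not overlap for 7 of the 9 genes, and the share over all rows was 62.2%. Spi1, Cebpb, Maf and Klf6 were the higher ones, against 15.9% of all rows, and Csf1r, Cebpa and Runx1 the lower ones, against 46.2%.

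**Figure D3:**
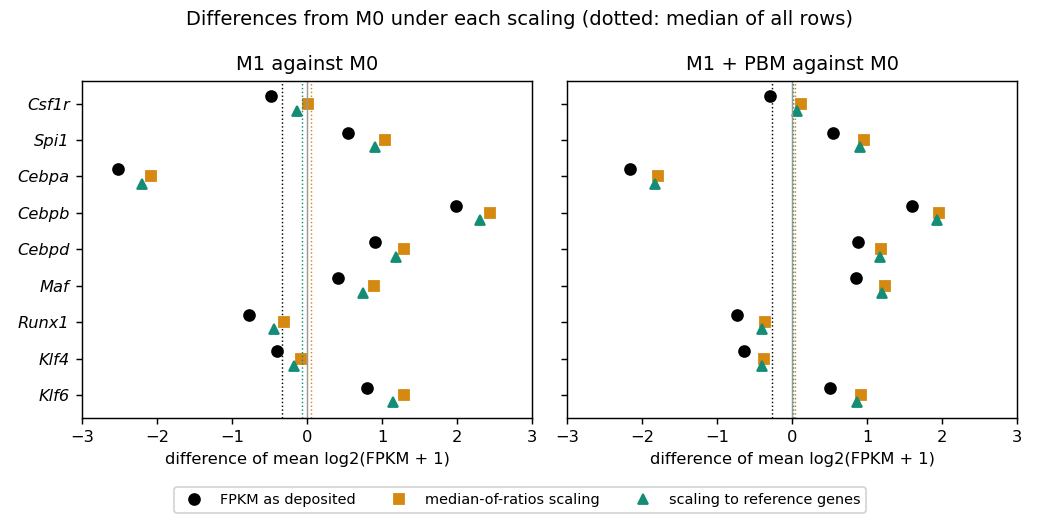
Differences in mean log2(FPKM + 1) of M1 (left) and M1 + PBM (right) from M0 for each gene, with values as deposited (circles), after median-of-ratios scaling (squares) and after scaling to reference genes (triangles). Dotted lines mark the median of all 13915 rows under each scaling, at -0.34 for M1 as deposited; Csf1r changes sign between scalings and Cebpa and Cebpb do not.

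Of 44 other lineage transcription factors, 37 were expressed, and 13 were lower and 6 higher in M1 than in M0 by the 2-fold rule, beside 13.7% and 7.81% of all rows. Without M0 replicate 3 the counts were 14 lower and 7 higher. Their median difference was -0.55. With median-of-ratios scaling 5 were lower and 8 higher. Pparg, a regulator of lipid handling in macrophages, was at 16.9, 21.2 and 9.12 FPKM in M0 and at 0.54, 0.79 and 1.03 in M1, a difference of -3.16. Egr2, a factor of alternative activation, differed by -2.25. Nr1h3, which encodes the oxysterol receptor LXRα, was higher, by 1.56. Irf8, a partner of PU.1, was at 15.2, 27.6 and 10.8 FPKM in M0 and at 8.03, 6.87 and 14.9 in M1, with overlap.

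**Figure D4:**
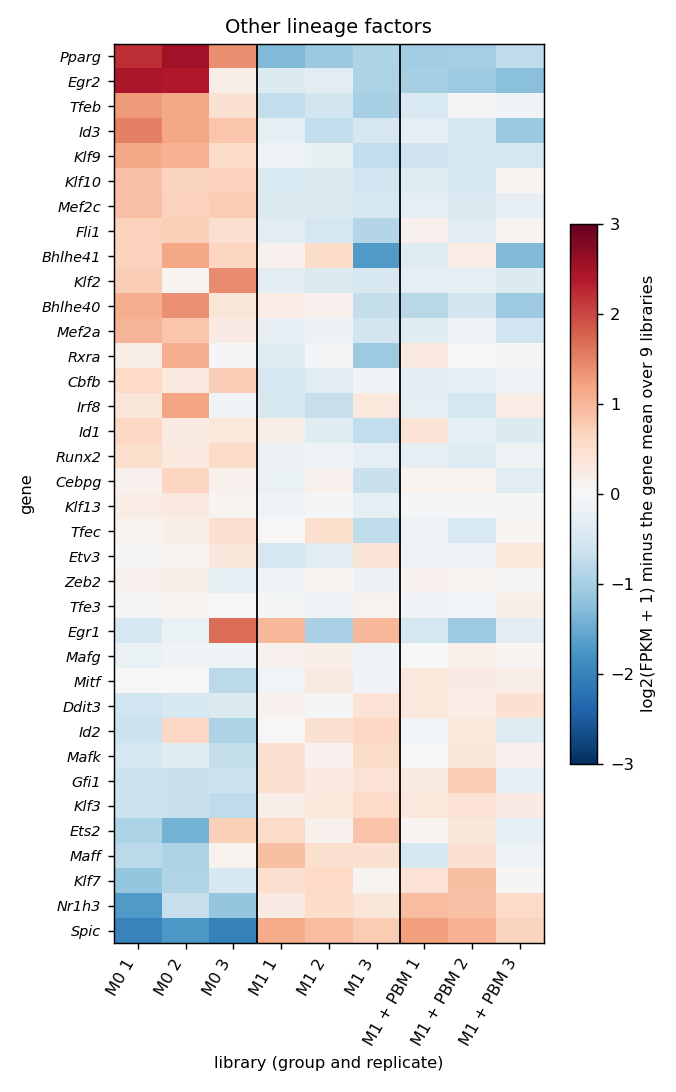
Log2(FPKM + 1) of 36 expressed lineage factors in each library, minus the gene's mean over the 9 libraries (red above, blue below), ordered by the difference of M1 from M0. Pparg and Egr2 at the top are high in M0 and Spic at the bottom is high in the stimulated libraries, and Egr2 is lower in M0 replicate 3 than in the other M0 libraries.

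The order of the 9 genes by mean FPKM was partly resolved. In M0 it ran Csf1r, Klf6, Spi1, Cebpa, Maf, Runx1, Cebpb, Cebpd and Klf4. Neighbours were separate only between Csf1r and Klf6, between Spi1 and Cebpa and between Runx1 and Cebpb, and the other neighbouring genes had overlapping libraries. In M1 it ran Csf1r, Klf6, Spi1, Cebpb, Maf, Runx1, Cebpd, Cebpa and Klf4. There Csf1r and Klf6 overlapped, since Klf6 reached 159.9 FPKM in the library where Csf1r was at 156, and so did Klf6 and Spi1. The separate neighbours in M1 were Spi1 and Cebpb, and Maf and Runx1. In M1 + PBM the order ran Csf1r, Klf6, Spi1, Maf, Cebpb, Runx1, Cebpd, Cebpa and Klf4, with Maf and Cebpb overlapping.

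M1 + PBM was compared with M1 with limma on log2(FPKM + 1) across 12238 rows with at least 1 FPKM in at least 3 of the 6 libraries. None of the 9 genes passed the thresholds of the study, a p of at most 0.05 with a 2-fold change, read here as an unadjusted p, which 0.261% of all rows passed. These were 32 rows, 3 higher and 29 lower. The study reported many more genes at these thresholds, most of them upregulated. Its methods do not name the test for them, so the 2 counts are unlike measures. None of the 9 genes had an adjusted p under 0.05, which 1 row of all, or 0.00817%, had. At an unadjusted p of at most 0.05 alone, 1 of the 9, Cebpb, was called, and it was lower. Over all rows 4.44% were called in either direction and 1.45% as lower. Cebpb was also the only gene of the 9 whose groups did not overlap, where 11.0% of rows did not.

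Cebpb was lower in M1 + PBM by -0.38 (SE 0.15, 95% interval -0.73 to -0.03, limma p = 0.0395, adjusted p = 0.90, two-sided exact permutation p = 0.1). By replicate number, which no label states to be a pairing, the differences were -0.65, -0.35 and -0.13. The exact p is the smallest that 3 libraries against 3 allow. Leaving out each library in turn, the difference ranged from -0.49 to -0.23, and its unadjusted p stayed at most 0.05 only without M1 + PBM replicate 3. Klf4 differed by -0.23 (SE 0.12, interval -0.52 to 0.06, limma p = 0.099, adjusted p = 0.90, exact permutation p = 0.2). It was lower at each replicate number, but its groups overlapped, with M1 + PBM replicate 2 at 1.24 FPKM and M1 replicate 3 at 1.23. Both groups of Klf4 were close to 1 FPKM.

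By replicate number Maf was higher with PBM by 0.56, 0.35 and 0.43, though its groups overlapped. The mean difference was 0.45 (SE 0.30, interval -0.27 to 1.16, limma p = 0.182, adjusted p = 0.90, exact permutation p = 0.2). With the replicate number as a block, the SE was 0.08 and the unadjusted limma p was 0.0034, and the adjusted p was 0.58. No label states that replicate numbers are pairs, so these blocked values and the differences by replicate number rest on an assumed pairing. Leaving out each library in turn without the block, the difference ranged from 0.22, without M1 + PBM replicate 3, to 0.69, without M1 + PBM replicate 2, and no fit had an unadjusted p of at most 0.05.

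For the other 6 genes the intervals of the difference included 0. Csf1r differed by 0.19 (interval -0.41 to 0.79), Spi1 by 0.0035 (-0.28 to 0.29), Cebpa by 0.35 (-0.64 to 1.35), Cebpd by -0.02 (-0.63 to 0.59), Runx1 by 0.04 (-0.19 to 0.26) and Klf6 by -0.28 (-0.87 to 0.30). In this fit the intervals of Spi1 and Runx1 reached at most 0.29 in either direction, while the interval of Cebpa reached past 2-fold. Other settings gave wider limits. The interval of Spi1 was -0.43 to 0.27 with median-of-ratios scaling and -0.34 to 0.41 without M1 + PBM replicate 1. That of Runx1 was -0.15 to 0.34 without M1 replicate 2. The spread between libraries may be technical, so these intervals do not bound an effect of PBM. Several of the 6 differences depended on M1 replicate 3. Without it Csf1r differed by -0.09, Cebpa by -0.10 and Klf6 by 0.0032. Without M1 replicate 2 Cebpa differed by 0.79, with an unadjusted limma p of 0.037. The Cebpb to Cebpa ratio was lower with PBM by -0.73 (exact permutation p = 0.3), and by -0.29 without M1 replicate 3.

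**Figure D5:**
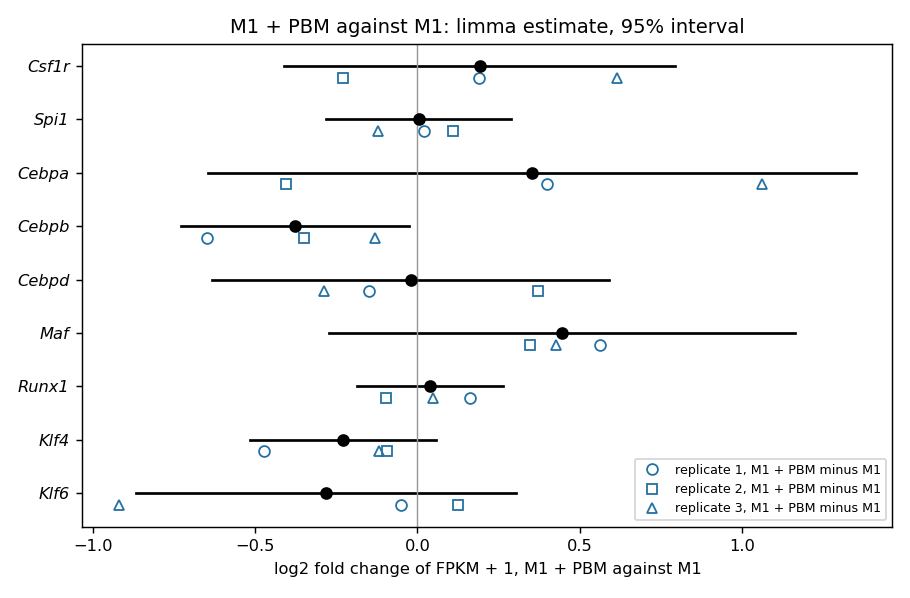
Log2 fold changes of FPKM + 1 in M1 + PBM against M1 for each gene, as limma estimates with 95% intervals (black) and as the difference within each replicate number (open symbols). The interval of Cebpb alone lies below 0, from -0.73 to -0.03, and the 3 differences of Maf by replicate number lie at 0.35 to 0.56. No label states that replicate numbers are pairs.

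The genes around these factors were compared between M1 + PBM and M1 in the same fit. Csf1 was lower by -0.40 (SE 0.12, limma adjusted p = 0.90), without overlap, and 5 of 6 fits that left out a library kept p at most 0.05. Csf3, which encodes G-CSF, was at 45.6, 3.60 and 21.1 FPKM in M1 and at 3.09, 3.77 and 1.71 in M1 + PBM, a difference of -2.16 (limma adjusted p = 0.90) with overlap. Of the 26 signalling genes tested, 1 was higher and 1 lower at an unadjusted p of at most 0.05, beside 4.44% of all rows called in either direction. Socs1 was at 7.15, 8.78 and 7.40 FPKM with PBM, lower by -0.78 (SE 0.13, limma adjusted p = 0.81), and Dok1, an adaptor that restrains receptor kinases, was higher by 0.37 (limma adjusted p = 0.90). Of the 32 other lineage factors tested, 4 were higher and 2 lower by the same rule, beside 4.44% of all rows called in either direction and 1.45% called lower. Among these were Tfeb, a regulator of lysosomal genes, at 0.56, Fli1 at 0.53, Nr1h3 at 0.41, Maff at -0.67 and Bhlhe40 at -0.71. Of them Fli1, Maff and Bhlhe40 were named after their values were seen. Maff was no longer called with the replicate block, where the unadjusted limma p was 0.062. The block called 5 of these factors as higher and 2 as lower, beside 592 and 396 of 12238 rows. None had an adjusted p under 0.05.

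Lists of genes associated with these factors were counted as well. Of 13 expressed genes associated with C/EBPβ and C/EBPδ, 12 were higher in M1 than in M0 by the 2-fold rule and none was lower, with a median difference of 4.14, or 5.38 without M0 replicate 3, beside 7.81% of all rows called higher. The stimulated libraries alone could carry a gene past the filter, which favours this direction. Saa3, an acute-phase gene, differed by 9.42 and Il1b by 8.03. In M1 + PBM against M1, 6 of the 13 were lower and 1 higher at an unadjusted p of at most 0.05, beside 4.44% of all rows in either direction, with a median of -0.77 against 0.06 over all rows. With the replicate block 7 were lower and 1 higher, beside 396 lower and 592 higher of 12238 rows. Il6 was at 21.7, 14.9 and 25.3 FPKM in M1 and at 3.40, 7.30 and 1.20 with PBM, and Il1b differed by -1.07. Trib1, whose product promotes breakdown of C/EBPα, was the gene that was higher, by 0.47. Several of these genes are inflammatory genes that other factors also control, and 5 of the 13 passed the thresholds of the study. The study had itself reported Il6 and Nos2 as different with PBM in these libraries. The list was chosen with earlier results of these data known, so its count is not separate support. Il6, Il1b, Nos2, Tnf and Il12b are also listed as M1 markers, and Cd14 as a macrophage core gene. Counts over these lists are therefore not separate observations. Of 10 genes associated with Maf factors, Gas6 alone was called without the replicate block, higher by 0.54 (limma adjusted p = 0.90), and Il10, at 15.5, 5.36 and 38.2 FPKM in M1 and 7.45, 3.67 and 7.74 with PBM, differed by -1.19 with overlap. With the block Il10 was called as lower, at an unadjusted limma p of 0.018 and an adjusted p of 0.58.

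Genes whose profile over the 9 libraries was closest to that of each factor were found by the root mean square difference of log2(FPKM + 1), centred on each gene's mean. For Csf1r these were Gpt2 at 0.08, Abcd3 at 0.10 and Nenf at 0.10, where the profile of Csf1r itself had a root mean square of 0.32. The nearest to Cebpa was Trem2, a macrophage receptor gene, at 0.20. Trem2 was at 177, 194 and 94.8 FPKM in M0 and at 23.6, 38.2 and 14.6 in M1. The nearest to Spi1 was Riok3 at 0.05, to Klf6 Kremen1 at 0.11 and to Klf4 Mir3092 at 0.12. For Cebpb, Cebpd, Maf and Runx1 the nearest were the unnamed gene models Gm38275, Gm45472, Gm17705 and Gm16278. The measure favours genes with a similar size of change, and the libraries share their scaling.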

How the data were processed

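RNA was extracted from 3 M0, 3 M1 and 3 M1 + PBM libraries and sequenced on an Illumina HiSeq instrument. The authors deposited FPKM values in 2 tables with the same 55655 rows, 1 for M0 and 1 for the other 6 libraries. The study's methods name Cufflinks for these values, and the submitters' processing notes list Bowtie 0.12.2 and the build mm9, with no role given. Because rows carry Ensembl identifiers and 320 carry assembled locus names, the build behind the values is unclear. The only coordinates printed, those of the Cebpa and Cebpb windows, are on GRCm38.p6 and not on mm9. Symbols came from GENCODE release M21 identifiers for 55154 rows. Depth is an estimate: 23.2% to 36.2% of low values were whole multiples of a step within 0.05, where evenly spread values give 10%, and in 8 of 9 libraries a step above the searched range scored better, so the estimate may be low. Reads could not be recovered from these steps, so no count test was applied. The top 3 rows held 30.9% to 37.8% of the summed FPKM.

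M1 + PBM was compared with M1 with limma 3.58.1 in R 4.3.3 on log2(FPKM + 1), with a trend in eBayes and Benjamini-Hochberg adjustment over 12238 rows, and with exact permutation tests. The fit was tested on simulated data. A pseudocount understates changes of low genes. Replicate numbers were checked as pairs: deviations from group means correlated at 0.16, 0.47 and 0.46 for libraries of the same number and at -0.49 to 0.03 for the others. The check uses the same libraries as the fit and cannot establish a pairing. The blocked value is given where it changes the call of a gene named here or the counts of a list. Alternatives were a pseudocount of 0.1, no filter, median-of-ratios, reference-gene and quantile scaling, the block and leaving out each library. List values without M0 replicate 3, alternatives for the ratios, differences relative to the median of all rows and list counts with the block were added after seeing the data. The 9 genes and the gene lists were chosen with earlier results of these data known, and lists are described by counts and medians without a test. Genes named from a list were its 2 largest differences in each direction between M0 and M1 without overlap and its 2 lowest p-values with PBM, with Spib, Spic, Csf1 and Il34 as partners. Results for 2 genes of these lists are not reported here. Adgre1, Csf2rb, Rhbdf2, Adam17, Irf8, Cbfb, Cebpe, Cebpg, Ddit3, Runx2, Runx3, Klf2, Flt3, Fli1, Maff, Bhlhe40 and Trib1 were named after their values were seen.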

Additional observations from a re-analysis of the deposited data

How the results depend on the processing

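The number of genes past the study's thresholds in M1 + PBM against M1 was 32, 75 with a pseudocount of 0.1, 45 with the replicate block, and 27 to 89 when a library was left out, highest without M1 + PBM replicate 2 and 69 without M1 replicate 2. At an unadjusted p of at most 0.05 alone, 543 genes were called, and 988 with the block. Of the 9 genes, 1 was called by that rule, 2 with quantile normalization (Cebpb and Klf4), 2 with the replicate block (Cebpb and Maf), and 0 to 1 without a library. None passed the study's thresholds under any alternative. The block changed no other call among the 9.

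Small differences with PBM changed sign. With median-of-ratios scaling Spi1 was at -0.076 and Runx1 at -0.032, and Runx1 was at -0.0097 with quantile normalization. When a library was left out, Spi1 ranged from -0.054 to 0.10, Cebpd from -0.20 to 0.24, Csf1r from -0.086 to 0.39, Cebpa from -0.096 to 0.79 and Klf6 from -0.43 to 0.0032. The 2 genes called between M1 and M0 became 5 with median-of-ratios scaling and 4 with reference genes. The shares over all rows were 21.5%, 18.6% and 18.7%. The causes were not tested. Cebpa and Cebpb kept their direction and their 2-fold difference from M0 under every alternative run. With 3 libraries a group, the 95% interval for PBM against M1 was widest for Cebpa, from -0.64 to 1.35, so a 2-fold rise of that gene was not distinguishable from no change.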

Other observations

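Of 22 macrophage core genes, all expressed, 7 were higher and 3 lower in M1 than in M0 by the 2-fold rule and 12 were not called, where 7.81% of all rows were higher and 13.7% lower. The median difference was 0.05, -0.13 without M0 replicate 3 and 0.55 with median-of-ratios scaling. Fcgr1, the high-affinity IgG receptor gene, was at 23.6, 25.1 and 59.3 FPKM in M0 and at 354, 314 and 490 in M1, a difference of 3.49. Msr1, a scavenger receptor gene, differed by 1.64. Trem2, a lipid-sensing receptor gene, and Lgals3, which encodes galectin-3, were lower, by -2.60 and -2.24. None of the 21 core genes tested was called between M1 + PBM and M1 at an unadjusted p of at most 0.05. Over all rows 4.44% were called. With the replicate block 1 core gene was higher and 1 lower, beside 592 higher and 396 lower of 12238 rows.

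All 14 expressed M1 markers were higher in M1 than in M0 by the same rule, beside 7.81% of all rows called higher. Expression in the stimulated libraries alone was enough to pass the filter, so this direction was favoured in advance. The median difference was 5.57, or 5.87 without M0 replicate 3. In M1 + PBM, 4 of the 14 were lower than in M1 at an unadjusted p of at most 0.05, beside 1.45% of all rows. With the replicate block 7 were lower, beside 396 of 12238 rows. Il6, Il1b and Nos2 among the 4 are also on the list associated with C/EBPβ and C/EBPδ. The study had reported Il6 and Nos2 as different with PBM in these same libraries. Of 25 reference genes, 2 were higher and 2 lower in M1 than in M0, with a median of -0.38, and none was called between M1 + PBM and M1. The summed FPKM of 12 neutrophil markers was 3.20 to 5.82 in M0, 9.91 to 28.8 in M1 and 8.09 to 16.6 in M1 + PBM. That of mast cell and basophil markers was 1.19 to 1.60, 11.0 to 11.4 and 7.05 to 10.3, of which Hdc, which encodes histidine decarboxylase, was the gene higher in M1. With the replicate block 1 of 3 neutrophil markers and 1 of 5 stromal markers tested were lower with PBM, and none without it.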
